A study of Mus musculus with 23 samples.

Results

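Bcl11b, Fezf2 and Tbr1 encode transcription factors of deep-layer cortical projection neurons. Their loci were followed through lists of regions enriched for the histone marks H3K27ac and H3K4me2 in 4 subregions of the adult mouse cortex. The members were the regions that overlapped mm9 chr12:109100000-109290000 (the Bcl11b window), chr14:13120000-13230000 (the Fezf2 window) or chr2:61590000-61700000 (the Tbr1 window) in 16 deposited lists. There were 143 entries of 527177 in all, of which 105 lay in the Bcl11b window, 31 in the Fezf2 window and 7 in the Tbr1 window. Each subregion and mark had a full list and an enhancer list, and every enhancer region was also in the full list. The 143 entries were therefore 84 regions of the full lists, 59 of which were also in the enhancer lists and 25 of which were not and are called excluded regions.

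All groups were C57BL6J mice at postnatal day 56 (P56), and the labels name no treatment, transgene or other allele. The labels do not say whether different animals gave the libraries of a group. The groups differed in the tissue taken: the anterior cingulate (ACC), the retrosplenial (RSC), the lateral entorhinal (LEC) or the medial entorhinal (MEC) cortex, dissected from both hemispheres in unstained 500 µm slices and frozen. The labels give 2 libraries for each subregion and mark, except 1 for MEC H3K4me2, and 2 input libraries per subregion. Each subregion and mark came as a single list without separate values for its libraries, so the values below have no replicate error, and differences between subregions were not tested. Whole tissue was used, so fewer cells that carry a mark and less of the mark per cell cannot be told apart. The tissue labels could not be checked against marker genes, because the lists name no genes.

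H3K27ac is acetylation of histone H3 at lysine 27, a mark of active enhancers and promoters. H3K4me2 is dimethylation at lysine 4, found at promoters and enhancers whether or not they are active. Fezf2, a zinc finger protein, specifies neurons that project from the deep cortical layers to targets below the cortex, and Bcl11b (also called Ctip2), another zinc finger protein, acts with it in the growth of their axons. Tbr1, a T-box protein, is a marker of corticothalamic neurons and is known to restrain Fezf2 in them. Bcl11b is also made by many cortical interneurons.

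The promoter sequences of the 3 genes are shown because each window was tied to its gene only through excluded regions, assumed to hold promoters. The sequences are the 250 bases before each gene's start from RefSeq, in build GRCm38.p6. That is another build than the mm9 of the lists, so the sequences were not placed on the regions. All 3 genes matched an entry. They lie at chr12:108003415-108003664 on the minus strand (Bcl11b), chr14:12345866-12346115 on the minus strand (Fezf2) and chr2:61804203-61804452 on the plus strand (Tbr1). Capitals mark matches, on either strand, to TAATTA, the core bound by many homeodomain proteins, or to GGGCGG, the GC box. CCAAT and TATAAA were also searched and had no match in any of the 3.
Bcl11b: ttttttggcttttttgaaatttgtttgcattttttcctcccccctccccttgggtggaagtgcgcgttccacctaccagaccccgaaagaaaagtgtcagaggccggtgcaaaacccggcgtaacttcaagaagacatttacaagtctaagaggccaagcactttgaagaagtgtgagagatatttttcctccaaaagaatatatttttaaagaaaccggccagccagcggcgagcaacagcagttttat
Fezf2: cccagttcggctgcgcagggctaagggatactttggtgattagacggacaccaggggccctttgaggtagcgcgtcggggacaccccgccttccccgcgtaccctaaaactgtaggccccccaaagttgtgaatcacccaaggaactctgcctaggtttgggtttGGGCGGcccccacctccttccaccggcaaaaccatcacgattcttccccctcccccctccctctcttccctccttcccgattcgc
Tbr1: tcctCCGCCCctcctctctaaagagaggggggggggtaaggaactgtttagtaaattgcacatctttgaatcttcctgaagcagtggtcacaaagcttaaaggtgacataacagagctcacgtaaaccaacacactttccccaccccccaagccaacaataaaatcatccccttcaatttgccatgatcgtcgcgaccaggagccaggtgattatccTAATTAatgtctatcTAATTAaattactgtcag

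The Tbr1 promoter held 2 matches to TAATTA, starting 33 and 18 bases before the gene start, and 1 GC box that started 246 bases before it. TAATTA was present in 4.84% of 32851 RefSeq promoters of the same length, and the GC box in 32.7%. The Fezf2 promoter held 1 GC box, 85 bases before the start, and the Bcl11b promoter held none of the 4 motifs, of which CCAAT was found in 33.8% and TATAAA in 12.4% of promoters. The numbers of CpG dinucleotides were 14 in Fezf2, 9 in Bcl11b and 5 in Tbr1, against a median of 6 over all promoters.

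The windows were checked for promoters through the excluded regions, since the lists carry no gene names. In the Bcl11b window, 8 of 8 full lists had an excluded region, and all of them joined into chr12:109152126-109253575, a stretch of 101450 bp. In the Fezf2 window, 7 of 8 did, within chr14:13168426-13183650 (15225 bp), and in the Tbr1 window 7 of 8 did, within chr2:61639726-61656425 (16700 bp). Excluded regions were common: of 48266 ACC H3K27ac regions, only 27909 were also in the enhancer list. How many other windows of these sizes hold excluded regions in as many lists was not counted, so the counts do not single out these genes. The rule for naming a gene asked for 8 of 8, which Bcl11b alone met, and only across the joined stretch. The MEC excluded regions of the 2 marks there did not overlap, so no stretch was excluded in more than 7 lists: at chr12:109228126-109242625, for example, 7 lists had an excluded region and 1 had an enhancer region. At Fezf2 and Tbr1 the common stretches also had 7 lists with an excluded region, and 0 with an enhancer region. Fezf2 and Tbr1 are named here as the genes of their windows after these values were seen. The lists without an excluded region were RSC H3K27ac at Fezf2 and ACC H3K4me2 at Tbr1. In the order of protein-coding genes in the RefSeq table, Gm52008 and Setd3 flank Bcl11b. Psmd14 and Slc4a10 flank Tbr1, and 3830406C13Rik and Cadps flank Fezf2. Where these neighbours begin and end in mm9 was not analysed here, so regions away from the excluded element may lie in or belong to a neighbour.

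The Bcl11b window held a broad H3K27ac domain in ACC and LEC, which was split in RSC and listed as shorter pieces in MEC. In ACC a single excluded region, chr12:109152251-109253575, spanned 101 kb and was the 3rd widest of 48266 H3K27ac regions. In LEC 2 excluded regions of 31.3 kb and 65.5 kb, 1.375 kb apart, covered 95.4% of the ACC domain, and the wider was the 2nd widest of 42136 regions. In RSC 3 regions of 20.2, 6.175 and 50.4 kb covered 75.8% of it, with a longest gap of 12.3 kb. In MEC 7 regions covered 36.7%, the widest of them 14.5 kb, and the longest gap was 40.4 kb (chr12:109170626-109211025).

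**Figure D1:**
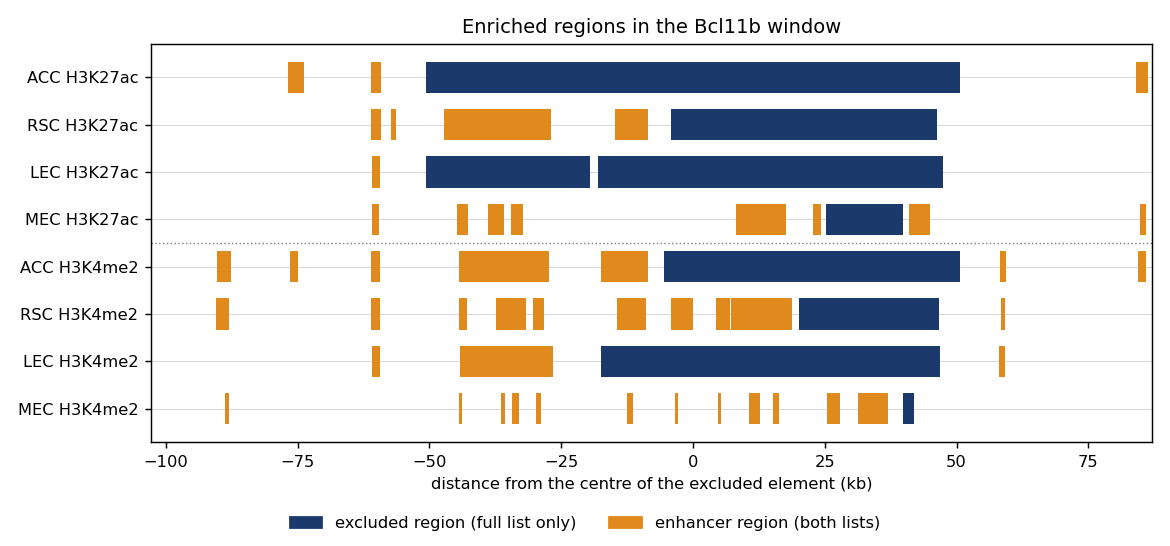
Enriched regions of the full lists in the Bcl11b window, 1 line per subregion and mark, against the distance in kb from the centre of the excluded element; dark bars are excluded regions and orange bars are regions that are also in the enhancer list. The ACC H3K27ac domain of 101 kb is unbroken, and the same stretch holds 7 separate H3K27ac regions in MEC.

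H3K4me2 followed the same outline at Bcl11b. The LEC list had its widest region of all 48182 there, an excluded region of 64.3 kb at chr12:109185326-109249625. ACC had an excluded region of 56.2 kb, the 4th widest of 54419, and RSC had one of 26.7 kb, the 33rd widest of 46552. MEC had 12 regions in the domain, the widest 5.675 kb, and its only excluded region there was 2.025 kb wide. Of the ACC domain, H3K4me2 covered 81.0% in ACC and 80.9% in LEC, compared with 59.1% in RSC and 19.3% in MEC. The longest H3K4me2 gap in the domain fell at nearly the same place in the 4 lists: chr12:109175451-109185450 in ACC, chr12:109174626-109188450 in RSC, chr12:109176226-109185325 in LEC and chr12:109174001-109190275 in MEC.

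Over the whole Bcl11b window of 190 kb, the full H3K27ac lists covered 108 kb in ACC and 98.3 kb in LEC, beside 79.55 kb in RSC and 39.45 kb in MEC. For H3K4me2 the same values were 90.7 kb in ACC and 84.5 kb in LEC, against 64.7 kb in RSC and 20.4 kb in MEC. ACC and LEC were thus highest and MEC lowest for both marks. Few stretches of the genome were covered as densely: of 13887 adjoining windows of 190 kb, at most 1.1% had as many H3K27ac bases as Bcl11b, a share found in MEC, and it was 1.01% in RSC, 0.59% in ACC and 0.295% in LEC. For H3K4me2 it was 0.216% in ACC and 0.0648% in LEC, compared with 0.331% in RSC and 1.87% in MEC. The median window held 3.9 kb of H3K27ac in ACC and 1.25 kb in MEC.

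**Figure D2:**
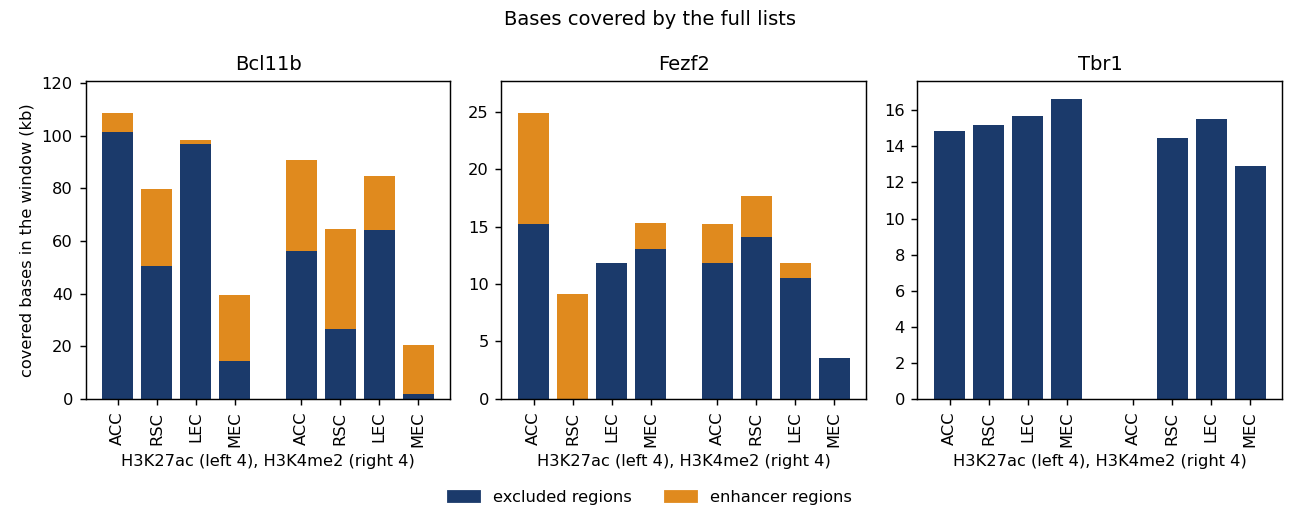
Bases covered by the full lists in each window, in kb, for each subregion (H3K27ac in the left 4 bars, H3K4me2 in the right 4); the dark part of a bar is in excluded regions and the orange part in enhancer regions. At Bcl11b the H3K27ac bars fall from 108 kb in ACC to 39.45 kb in MEC, and at Tbr1 the ACC H3K4me2 bar is at 0.

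The lists differ in total length, and the depth behind them is unknown. The full H3K27ac list covered 182 Mb in ACC and 151 Mb in LEC, beside 145 Mb in RSC and 65.7 Mb in MEC. Set against these totals, the Bcl11b window took nearly the same share of each H3K27ac list: 653 bp per Mb of list in LEC, 601 for MEC, 595 for ACC and 549 for RSC. The lower H3K27ac coverage of Bcl11b in MEC was therefore in proportion to its shorter list. For H3K4me2 the share was 599.9 bp per Mb in LEC, 557 for ACC and 506 for RSC, and it was lower in MEC, at 365.

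**Figure D3:**
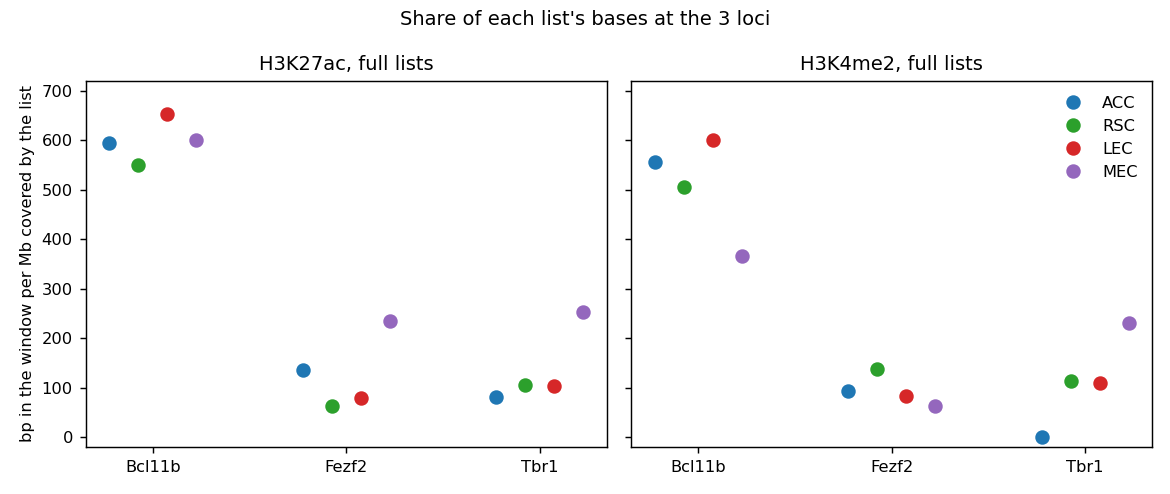
Bases of each full list in the 3 windows, in bp per Mb covered by that list, with 1 point per subregion; the left panel shows H3K27ac and the right panel H3K4me2. The 4 H3K27ac points at Bcl11b lie between 549 and 653, while MEC lies above the other subregions at Fezf2 and Tbr1 for H3K27ac.

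The enhancer lists gave a different order of H3K27ac coverage at Bcl11b. The MEC H3K27ac enhancer list had 8 regions there, RSC 4, ACC 3 and LEC 1, and the bases covered were 24.95 kb in MEC and 29.15 kb in RSC, against 7.125 kb in ACC and 1.55 kb in LEC. In covered bases MEC and RSC thus stood above ACC and LEC, the reverse of the full lists. In numbers of regions the order was that of the full lists, which had 9 in MEC, 5 in RSC, 4 in ACC and 3 in LEC. With each list kept to its widest regions, up to the length of the shortest list, the enhancer counts became 8 for MEC, 2 for RSC, 1 for ACC and 0 for LEC. The MEC list, with 10951 regions, was itself the shortest, so its count could not change while those of the other lists could only fall. The domain of ACC and LEC was absent from their enhancer lists as a whole, since the 1 or 2 regions that made it up were excluded. Excluded regions held 93.4% of the full-list H3K27ac bases of the window in ACC and 98.4% in LEC, against 63.4% in RSC and 36.8% in MEC. Over the whole genome these shares were 55.2%, 55.0%, 52.3% and 54.4% in the same order of subregions. For H3K4me2 the enhancer regions numbered 12 in MEC and 10 in RSC, compared with 7 in ACC and 3 in LEC. Their bases ran otherwise, with MEC lowest at 18.4 kb, LEC at 20.2 kb, ACC at 34.5 kb and RSC at 37.975 kb. With regions under 1000 bp left out, the MEC count fell to 6, below the 9 of RSC and the 7 of ACC.

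Of the 16 H3K27ac enhancer regions at Bcl11b, 6 overlapped no H3K27ac enhancer region of another subregion. They were 1 of 3 in ACC, 2 of 4 in RSC, 0 of 1 in LEC and 3 of 8 in MEC, where the whole lists gave 22.9% in ACC and 20.4% in RSC, beside 20.2% in LEC and 20% in MEC. The MEC regions were chr12:109211026-109220575 (9.55 kb), chr12:109225651-109227100 (1.45 kb) and chr12:109243776-109247900 (4.125 kb). All 3 lay inside the domain that was excluded in ACC and LEC, and RSC also had an excluded region over them. The RSC regions were chr12:109188151-109194325 (6.175 kb), inside the domain, and chr12:109145626-109146550 (0.925 kb), outside it. The ACC region was chr12:109126051-109129075 (3.025 kb), 23.05 kb from the excluded element.

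Against the full lists of the other subregions, only the ACC region and the smaller RSC region stayed subregion-only. That was 1 of 3 in ACC, 1 of 4 in RSC and 0 of 8 in MEC, beside 21.0%, 16.4% and 10.1% of the whole lists, and 0 of 1 in LEC beside 16.5%. The ACC region also carried an ACC H3K4me2 region, chr12:109126326-109127900 (1.575 kb), that no other subregion shared in either kind of list. No other place in the 3 windows held enhancer regions of both marks that were confined to the same subregion. The RSC region of 0.925 kb carried no H3K4me2 in RSC.

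H3K4me2 enhancer regions confined to a single subregion numbered 2 of 7 in ACC (20.8% of the whole list), 0 of 10 in RSC (16.1%), 0 of 3 in LEC (16.2%) and 2 of 12 in MEC (32.6%). Besides the ACC region just named, ACC had chr12:109287351-109288825 (1.475 kb). The H3K27ac region over it, chr12:109286851-109289100, was shared by ACC and MEC. The wider of the MEC regions was chr12:109234226-109239900 (5.675 kb), and both MEC regions lay in excluded regions elsewhere. Against full lists the counts were 2 of 7 in ACC (20%), 0 of 10 in RSC (13.6%), 0 of 3 in LEC (14.3%) and 0 of 12 in MEC (20.2%).

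A single H3K27ac enhancer element at Bcl11b was carried by all 4 subregions. It lay at chr12:109141776-109143625, 8.5 kb from the excluded element, and its regions were 1.85 kb wide in ACC and 1.825 kb in RSC, with 1.55 kb in LEC and 1.225 kb in MEC. H3K4me2 was listed there in ACC, RSC and LEC and not in MEC. The widest H3K27ac enhancer element was chr12:109155626-109175850 (20.2 kb), a single region in RSC that held 3 regions of 2.125, 3.15 and 2.3 kb in MEC. The 4 H3K4me2 enhancer lists also met there, in chr12:109158426-109176225.

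At Fezf2 the domain was shorter, and RSC had no H3K27ac region at its centre. Excluded H3K27ac regions at chr14:13168426-13183650 were 15.2 kb wide in ACC, 13.025 kb in MEC and 11.85 kb in LEC. The RSC list had no H3K27ac region there; its nearest were 3.95 kb to the left and 36.2 kb to the right. RSC did have H3K4me2 over the same stretch, with an excluded region of 14.1 kb (chr14:13169551-13183650) that was the widest of the 4 subregions. H3K4me2 regions were 11.9 kb wide in ACC and 10.5 kb in LEC, and in MEC there were 3 short ones of 2.325, 0.5 and 0.725 kb. Over the excluded stretch, H3K4me2 was thus widest in RSC, where no H3K27ac region was listed, and MEC had broad H3K27ac with little H3K4me2. MEC H3K4me2 came from 1 library, and its regions were short in the whole list too, with a median width of 1250 bp. Joined across gaps of up to 5 kb, the 3 MEC regions spanned 7.375 kb.

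Such a gap can be set beside those in the full lists as a whole. There were 2850 H3K27ac sites of at least 10 kb, merged over the subregions, that ACC, LEC and MEC all carried. RSC lacked 66 of them, or 2.32%, and the Fezf2 site was the 15th widest of the 66. The merging took in RSC, so RSC regions could bring a site to 10 kb only where RSC carried it. This can make the share lower than a cut on the other 3 subregions alone would. Of these 66 sites, 62 carried H3K4me2 in RSC, as Fezf2 did. Among sites of any width RSC lacked 10.9%. The same kind of gap was found in other lists: ACC lacked 1.76% and LEC 3.6% of the wide H3K27ac sites that the other 3 carried, and MEC 19.1%. Of the wide sites they lacked, 49 of 50 in ACC, 56 of 104 in LEC and 223 of 658 in MEC carried H3K4me2 in that subregion. How many of all 2850 sites carried H3K4me2 in RSC was not counted, so 62 of 66 is not shown to be particular to the gaps. Whether the gap at Fezf2 is in the tissue or in the making of the list was not tested.

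**Figure D4:**
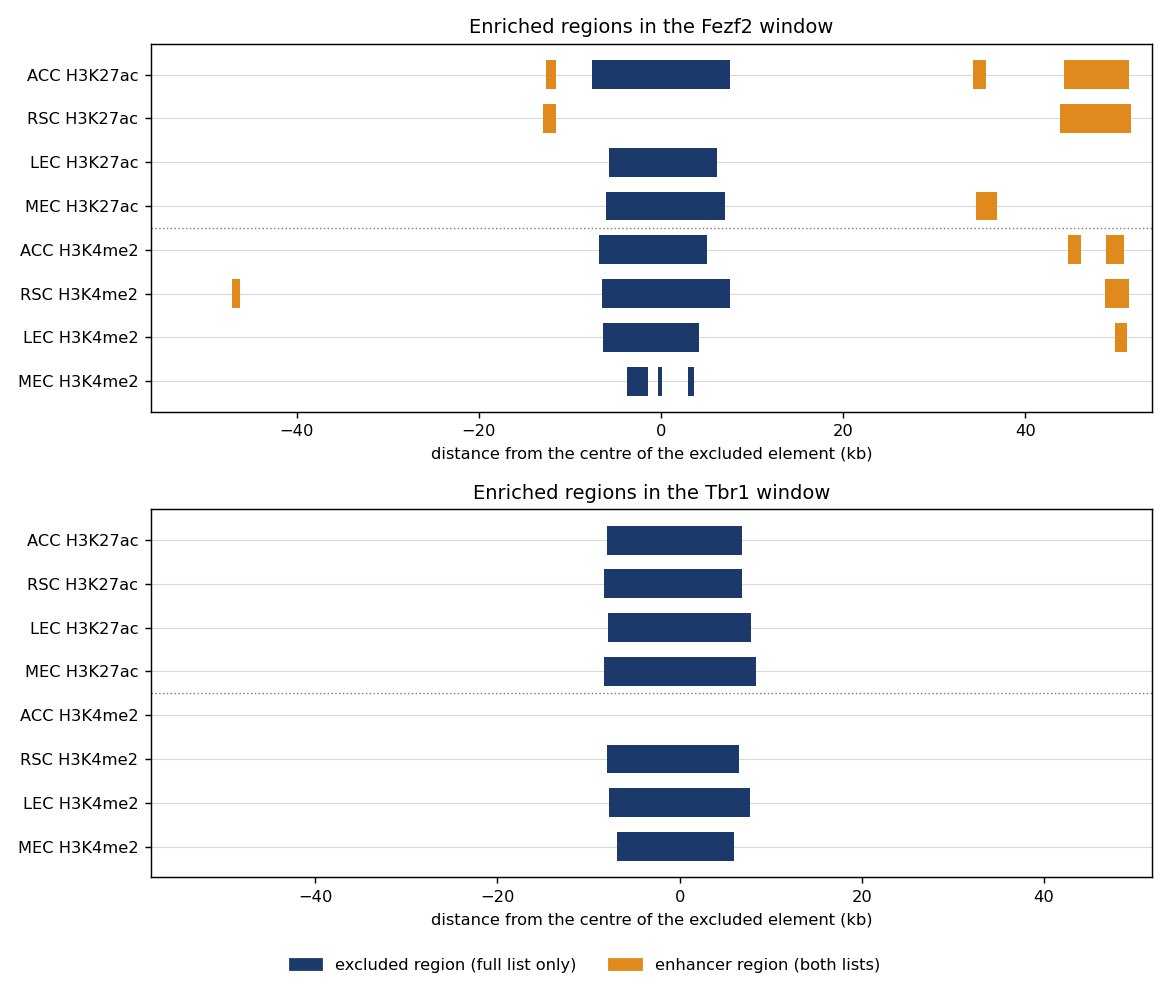
Enriched regions of the full lists in the Fezf2 window (top) and the Tbr1 window (bottom), drawn as for Bcl11b, with distance in kb from the centre of the excluded element. The RSC H3K27ac line is empty at the centre of the Fezf2 window, and the ACC H3K4me2 line is empty throughout the Tbr1 window.

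Away from its excluded element, the Fezf2 window held H3K27ac enhancer regions in ACC (3), RSC (2) and MEC (1), and none in LEC. They formed 3 elements, and ACC had a region in each. The widest, chr14:13219851-13227625, was shared by ACC (7.175 kb) and RSC (7.775 kb) and lay 36.2 kb from the excluded element, on the side of Cadps in the gene order. ACC and RSC also shared chr14:13163076-13164475, 3.95 kb from the excluded element, and ACC and MEC shared chr14:13210251-13212925. No H3K27ac enhancer region at Fezf2 was confined to a single subregion, which is 0 of 3 in ACC (22.9% of the whole list), 0 of 2 in RSC (20.4%) and 0 of 1 in MEC (20%). With so few regions, a count of 0 does not set Fezf2 apart from these shares. RSC thus had both H3K27ac elements it shared with ACC on either side of the stretch where it had none.

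H3K4me2 enhancer regions at Fezf2 numbered 2 in ACC and 2 in RSC, against 1 in LEC and 0 in MEC. The ACC region chr14:13220701-13222150 (1.45 kb) and the RSC region chr14:13128926-13129825 (0.9 kb) were each confined to a single subregion, also against full lists. That is 1 of 2 regions in ACC, beside 20.8% of the whole list (20% against full lists), and 1 of 2 in RSC, beside 16.1% (13.6%). The ACC region lay inside the H3K27ac element that ACC and RSC shared, and the RSC region had no H3K27ac in RSC. ACC, RSC and LEC shared chr14:13224801-13227475. In LEC this H3K4me2 region of 1.3 kb had no H3K27ac over it, whereas ACC and RSC did.

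Over the Fezf2 window of 110 kb the full H3K27ac lists covered 24.9 kb in ACC and 15.35 kb in MEC, compared with 11.85 kb in LEC and 9.175 kb in RSC. H3K4me2 covered 17.7 kb in RSC and 15.2 kb in ACC, beside 11.8 kb in LEC and 3.55 kb in MEC. RSC was lowest for H3K27ac and highest for H3K4me2. Per Mb of list, H3K27ac at Fezf2 was highest in MEC, with 234 bp, followed by ACC with 136, LEC with 78.7 and RSC with 63.3. For H3K4me2 it was 138 in RSC and 93.4 in ACC, against 83.97 in LEC and 63.6 in MEC. The window was not as dense as that of Bcl11b: of 23994 windows of 110 kb, 21.1% had as many H3K27ac bases in RSC and 17.7% in LEC, with 9.72% in ACC and 3.75% in MEC.

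Tbr1 was the most uniform of the 3 loci in H3K27ac. Its window held 1 H3K27ac region per subregion, all excluded and all close in size: 14.8 kb in ACC and 15.2 kb in RSC, compared with 15.7 kb in LEC and 16.6 kb in MEC. The MEC region, chr2:61639801-61656425, was the widest, although the MEC list was the shortest, and it was the 101st widest of 22848 regions. The ACC region ranked 1250 of 48266, RSC 738 of 41584 and LEC 633 of 42136. Per Mb of list the Tbr1 window held 253 bp in MEC and 104.9 in RSC, beside 104 in LEC and 81.3 in ACC. The 4 regions shared 14.65 kb of the 16.7 kb they covered together, or 87.7%, where 15.8% of all H3K27ac bases were shared by the 4 subregions.

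H3K4me2 matched this outline at Tbr1 in 3 subregions and had no region in ACC. The RSC region was 14.5 kb wide and the LEC region 15.5 kb. The MEC region was 12.925 kb wide and the 20th widest of 30064. In the ACC H3K4me2 list, the longest of the H3K4me2 lists with 54419 regions, the nearest regions were 87.8 kb to the left and 227 kb to the right of the excluded element. ACC lacked 58 of the 1778 H3K4me2 sites of at least 10 kb that the other 3 subregions carried, or 3.26%, and 12% of those of any width. Tbr1 was the 8th widest of the 58, and 51 of them carried H3K27ac in ACC, as Tbr1 did. RSC lacked 3.32% and LEC 2.71% of such wide H3K4me2 sites, and MEC 10%. Of the wide sites they lacked, 54 of 59 in RSC, 45 of 48 in LEC and 92 of 192 in MEC carried H3K27ac in that subregion. How many of all 1778 sites carried H3K27ac in ACC was not counted, so 51 of 58 is not shown to be particular to the gaps. Whether the ACC gap at Tbr1 is in the tissue or in the making of the list was not tested.

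No enhancer list had a region in the Tbr1 window, for either mark and in any of the 4 subregions. Of 23994 windows of 110 kb, 74.8% had no H3K27ac enhancer region in MEC and 59.1% had none in LEC, with 57.0% in RSC and 54.3% in ACC. Many of these held no H3K27ac region at all: the full lists left 57.3% of windows empty in MEC, 45.4% in LEC, 44.8% in RSC and 42.9% in ACC. For H3K4me2 enhancer regions the empty share was 62.0% in MEC, 51.1% in LEC, 49.9% in RSC and 47.6% in ACC. How often a window with full-list regions, like that of Tbr1, lacked enhancer regions in all lists was not counted. All the marked bases at Tbr1 were in excluded regions, and the enhancer lists hold no region in its window. At Fezf2 the excluded share of H3K27ac bases ran from 0% in RSC to 100% in LEC, with 61.2% in ACC and 84.85% in MEC.

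The 3 loci also differed in how far the subregions shared bases, in the full lists. At Bcl11b 35.1% of H3K27ac bases were covered in 4 subregions and 9.13% in 1, where all lists together gave 15.8% and 32.4%. The enhancer lists went the other way: at Bcl11b 79.0% of H3K27ac enhancer bases were covered in 1 subregion and 2.47% in 4. Over all enhancer lists these shares were 44.9% and 8.31%. The enhancer values at Bcl11b leave out the domain of ACC and LEC, which was excluded there. Against full lists elsewhere, only 2 of the 16 H3K27ac enhancer regions were confined to 1 subregion. At Fezf2 no H3K27ac base was covered in 4 subregions, which was fixed because the only LEC region lay where RSC had none. There 43.8% were covered in 3, against 25.9% over all lists. For H3K4me2, bases covered in 4 subregions made up 20.5% at Bcl11b, 18.2% at Fezf2 and 0% at Tbr1, against 17.6% over all lists. The 0% at Tbr1 was fixed because ACC had no H3K4me2 region there. At Tbr1 82.1% of H3K4me2 bases were covered in 3, against 29.1% over all lists.

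**Figure D5:**
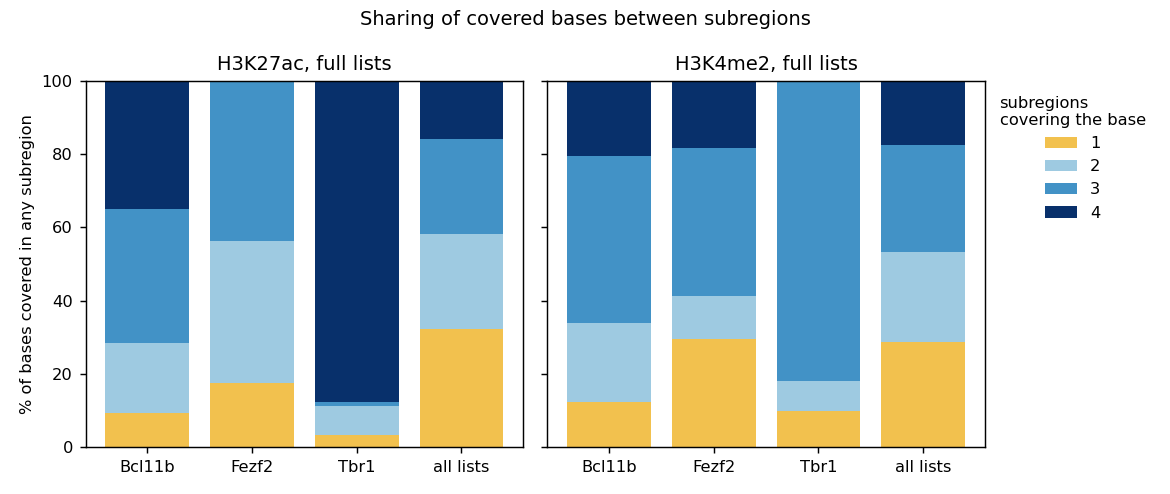
Percentage of the bases covered in any subregion that were covered in 1, 2, 3 or 4 subregions, in the full lists, at each locus and over all lists; the left panel shows H3K27ac and the right panel H3K4me2. At Tbr1 87.7% of H3K27ac bases were covered in 4 subregions, against 0% at Fezf2, where the only LEC region lay where RSC had none.

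Between subregions, ACC and LEC were the closest at Bcl11b, as they were over the whole full lists of both marks. Of the bases covered in either, they shared 90.4% for H3K27ac and 84.9% for H3K4me2, where the whole lists gave 54.1% and 57.75%. RSC and LEC shared 78.7% for H3K27ac, and ACC and RSC 71.9%. The share of MEC was 47.7% with RSC, and lower with LEC (38.7%) and ACC (36.4%), and it was closest to RSC in the whole lists too, at 33.9%. At Fezf2 the entorhinal divisions were the closest for H3K27ac: LEC and MEC shared 77.2%, against 29.4% over the whole lists, while RSC shared no base with either. This held for the full H3K27ac lists alone. In the H3K27ac enhancer lists ACC and RSC shared 76.8%. LEC and MEC shared 0% there, which was fixed because LEC had no H3K27ac enhancer region at Fezf2. In the full H3K4me2 lists LEC and MEC shared 30.0%, below the 73.4% of ACC and LEC. At Tbr1 all 6 pairs shared between 89.2% (ACC and MEC) and 97.5% (ACC and RSC) for H3K27ac.

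The overlap of the marks at Bcl11b depended on which mark was taken as the base. Of the H3K27ac bases there, 84.7% in LEC, 80.1% in ACC and 76.7% in RSC were also covered by H3K4me2, against 38.3% in MEC. Over the whole lists the values were 58.6% in LEC and 59.2% in ACC, against 53.5% in RSC and 43.1% in MEC. Of the H3K4me2 bases at Bcl11b, 74.1% in MEC lay under H3K27ac, against 50.7% over the whole MEC lists, and 94.3% to 98.6% did in the other subregions. Over the whole lists of those subregions the shares were 66.3% in ACC, 62.7% in LEC and 60.7% in RSC. At Fezf2, 100% of H3K4me2 bases lay under H3K27ac in MEC and ACC, against 83.3% in LEC and 15.1% in RSC. The MEC value rests on 3.55 kb of H3K4me2. At Tbr1 the share was 100% in MEC, RSC and LEC, and ACC had no H3K4me2 region. As a share of H3K27ac bases at Tbr1, the overlap was 98.7% in LEC and 95.2% in RSC, compared with 77.7% in MEC and 0% in ACC. At Fezf2 it was 83.1% in LEC and 61.2% in ACC, beside 29.2% in RSC and 23.1% in MEC. MEC H3K4me2 rested on 1 library, and its regions had a median width of 1250 bp, against 1875 to 2000 bp in the other full H3K4me2 lists; the part of this in the low MEC values was not tested.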

How the data were processed

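The series measured H3K27ac and H3K4me2 by chromatin immunoprecipitation and sequencing in 23 libraries, inputs included. Per the submitters' processing notes, Bowtie 1.1.1, bedtools 2.19.0 and build mm9 were used. Steps not given in the sources used here include the caller, its threshold, the way libraries were combined and the rule that cut the enhancer lists. The deposited score, which the MEC H3K27ac lists lack, equals region width in bp and gives no enrichment. Of 17 files, 1 was a copy and was not used.

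Regions overlapping each window by at least 1 bp were counted with Python 3.11.15 and numpy 2.4.6. A region was subregion-only when it overlapped no region of the mark in the same kind of list in the other 3 subregions. Bases were compared on the 25 bp grid of the lists, and coordinates are 1-based. On simulated lists, 8000 of 8000 elements were recovered. The genes, windows and counts were chosen with earlier results of these data known. Regions were named by rule: per locus, the excluded element, the widest H3K27ac enhancer element, those in all 4 subregions, H3K27ac enhancer regions confined to 1 subregion and, per subregion, the widest such H3K4me2 region. Other regions were added after the values were seen. No test was made.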

Additional observations from a re-analysis of the deposited data

How the results depend on the processing

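No paired analysis was possible because each subregion and mark came as a single list with no values per library; for the same reason no library could be left out. The numbers of enhancer regions confined to 1 subregion, summed over the 4 subregions, were 6 for H3K27ac and 4 for H3K4me2 at Bcl11b, 0 and 2 at Fezf2, and 0 and 0 at Tbr1. At Bcl11b, counting overlap with full lists elsewhere left 2 for H3K27ac and 2 for H3K4me2, and widening the windows by 50 kb on each side gave 11 and 8. Asking that at least 50% of a region be covered gave 7 for H3K4me2 at Bcl11b and 1 for H3K27ac at Fezf2. At Fezf2, keeping the widest regions of each list to the length of the shortest gave 1 for H3K27ac and 0 for H3K4me2; for H3K4me2 a minimum of 1000 bp gave 1, windows narrowed by 20 kb gave 0 and widened windows gave 4. The cause was not tested beyond what each setting removes or adds. Of the 24 counts of enhancer regions per subregion, mark and locus, 10 moved by over 1.5 times with lists kept to the length of the shortest. With widened windows 8 moved, with narrowed windows 6 and with a minimum of 1000 bp 2. Counts that were already 0, among them all those at Tbr1, could move only with widened windows. The MEC lists were the shortest, so keeping lists to that length left the MEC counts unchanged. Among the counts that this setting could change, only that of RSC H3K4me2 at Bcl11b did not move, with 9 against 10. For H3K27ac at Bcl11b, widened windows gave 10 in MEC, 7 in ACC, 5 in RSC and 4 in LEC, so ACC then stood above RSC. Merging regions into elements moved none of the 6 counts by more than 1.5 times. Joining full-list regions across gaps of up to 5 kb, chosen after the data were seen, gave a widest H3K27ac stretch at Bcl11b of 101 kb in ACC and 98.15 kb in LEC, against 60.95 kb in RSC and 22.25 kb in MEC. The depth of the libraries is unknown, so a region absent from a list may lie below its threshold.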
